A study of Mus musculus with 24 samples.

Results

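Transcripts that mark macrophages were measured in granulosa cells and oocytes of cultured mouse follicles. The set holds 10 of the 78298 genes in each deposited table: Lyz2, C1qa, C1qb, C1qc, Tyrobp, Cd68, Csf1r, Adgre1, Fcer1g and Laptm5. The members were chosen by the level of Lyz2 in CPM (counts scaled to each library's total), which was high in 2 of the 4 blebbistatin granulosa cell libraries (374 and 647 CPM). Differences between blebbistatin and the other granulosa cell libraries are therefore described without a test, and Lyz2 was tested nowhere.

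Macrophages are phagocytes of the immune system that clear dying cells and debris, and in the ovary they lie mainly in the stroma and around regressing follicles rather than inside the granulosa cell layer of a growing follicle. They depend on the CSF1 receptor, encoded by Csf1r, which binds the growth factors CSF1 and IL-34. Their transcripts encode lysozyme, complement proteins, Fc receptor adaptors and lysosomal membrane proteins in large amounts.

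Follicles of WT mice were enclosed in alginate and cultured to day 3 with 50 mIU/ml FSH and 10% fetal bovine serum under 3 conditions: control medium, blebbistatin at 20 µM (an inhibitor of the motor protein myosin II) or dextran added to give 10 kPa. Follicles that had passed 180 µm were freed from the gel and taken apart mechanically into oocytes and granulosa cells. Each oocyte library held 1 to 2 oocytes and each granulosa cell library a larger pool of cells, so that whatever remained attached to either fraction was sequenced with it. There were 4 libraries in each of the 6 groups, 24 in all. The age of the mice is not given, nor whether the solvent of blebbistatin was added to the control medium. The replicates are called biological but are not said to come from separate animals or cultures, so the p-values measure the spread between these libraries.

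Library totals were 16432298 to 22431013 counts in granulosa cells and 14244103 to 18399551 in oocytes. A limit of 3 counts corresponded to 0.134 to 0.183 CPM in the former and 0.163 to 0.211 CPM in the latter. The granulosa cell marker Inha lay between 10272 and 18582 CPM in the granulosa cell libraries, and the oocyte marker Zp3 between 1439 and 2941 CPM in the oocyte libraries. Blebbistatin granulosa cell replicate 1 stood apart with 14501 genes detected, against 18562 to 24230 in the other 11 granulosa cell libraries.

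The 10 genes together made up 716 CPM in blebbistatin granulosa cell replicate 1 and 1054 CPM in replicate 2. In replicates 3 and 4 of the same group the sum was 2.55 and 3.91 CPM. The 4 control libraries gave 1.56, 2.79, 2.01 and 11.5 CPM, and the 4 dextran libraries 2.72, 2.04, 2.56 and 2.44 CPM. Replicates 1 and 2 of the blebbistatin group were thus far above the other 10 libraries, while replicates 3 and 4 lay inside the range of the control and dextran libraries. The blebbistatin mean was 444 CPM with an SD of 528 (n = 4), an SD larger than the mean. In bulk libraries, fewer cells of a type and less RNA per cell cannot be told apart.

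**Figure D1:**
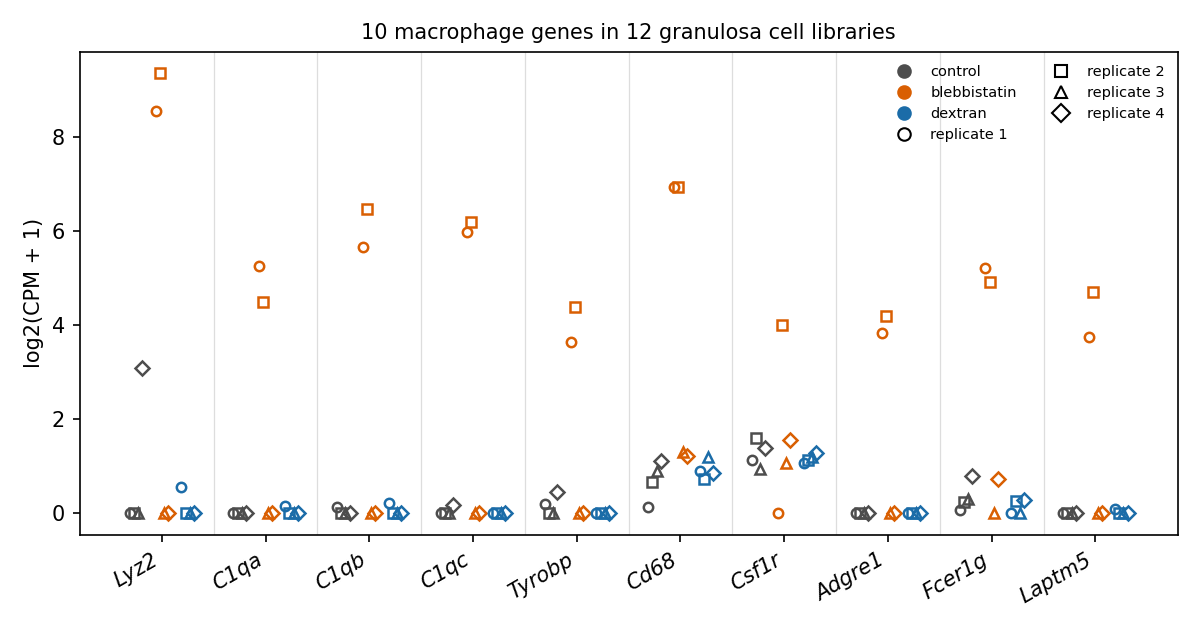
Level of each of the 10 genes in the 12 granulosa cell libraries, as log2(CPM + 1) on the vertical axis; colours give the condition, marker shapes the replicate number, and each point is 1 library. Blebbistatin replicates 1 and 2 lie above the other 10 libraries for 9 of the 10 genes, and Csf1r is at 0 in replicate 1 and at 15.0 CPM in replicate 2.

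Lyz2 (ENSMUSG00000069516) encodes lysozyme M, an enzyme that cuts bacterial cell walls and that macrophages and neutrophils make. Its level was 374 CPM (6881 counts; exact Clopper-Pearson 95% interval 365 to 383) in blebbistatin replicate 1 and 647 CPM (11099 counts; 635 to 659) in replicate 2. It was 0 in blebbistatin replicates 3 and 4. Control replicate 4 had 7.52 CPM (interval 6.28 to 8.997) and dextran replicate 1 had 0.476 CPM, and the other 6 control and dextran libraries had 0 counts. These intervals, here and below, cover counting error only, since the reads carry no molecular identifiers.

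Lyz1, a neighbouring gene that encodes a second lysozyme, is a close copy of Lyz2. In the GENCODE transcripts of the GRCm38 build the mature RNAs of both were 96.0% identical over 1262 aligned bases, and 32.8% of the 31-base words of Lyz2 also occurred in Lyz1, so reads from those stretches could be assigned to either gene. Lyz1 was nevertheless at 0 in 11 of the 12 granulosa cell libraries and at 2.76 CPM (47.3 estimated counts) in blebbistatin replicate 2, which had 11099 counts of Lyz2. The promoters are shown because the members were high together and because their motifs can be compared. PU.1, the product of Spi1, is a transcription factor of macrophages that binds purine-rich sites, and capitals mark the motif AGGAAG or its reverse complement CTTCCT. The sequences are from RefSeq on the GRCm38.p6 build, which is not the build of the deposited counts, and each runs 5′ to 3′ on the gene's strand from 200 to 41 bases before the annotated start. The Lyz2 window is chr10:117282313-117282472, the Lyz1 window chr10:117292909-117293068 and the C1qb window chr4:136886241-136886400, all on the minus strand.
Lyz2: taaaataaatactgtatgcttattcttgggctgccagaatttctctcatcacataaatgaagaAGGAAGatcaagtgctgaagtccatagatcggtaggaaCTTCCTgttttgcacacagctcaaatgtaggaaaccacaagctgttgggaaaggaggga
Lyz1: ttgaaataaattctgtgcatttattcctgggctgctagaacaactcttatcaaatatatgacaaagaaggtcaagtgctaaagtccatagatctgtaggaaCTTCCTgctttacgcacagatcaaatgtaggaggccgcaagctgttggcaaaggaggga
C1qb: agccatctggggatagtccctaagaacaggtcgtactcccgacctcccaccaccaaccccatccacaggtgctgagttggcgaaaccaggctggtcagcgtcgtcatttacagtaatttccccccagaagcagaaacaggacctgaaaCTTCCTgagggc

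The Lyz2 and Lyz1 windows were 83.0% identical over 159 aligned bases, with 1 CTTCCT in each and an AGGAAG in Lyz2 alone. The table held promoters of 6 members: Lyz2, C1qb, C1qc, Cd68, Fcer1g and Laptm5. Over the 250 bases before the start, AGGAAG or CTTCCT occurred in 5 of the 6 (Cd68 was the exception), against 29.5% of 32851 promoters. The related motif GAGGAA or TTCCTC, which overlaps the first by 5 letters, occurred in 4 of the 6, against 23.3% of all promoters. A match is a description of the letters and shows no binding. Spi1 itself was at 0 in blebbistatin replicate 1 and at 6.01 CPM in replicate 2, and at 0.243 CPM or less in the other 10 granulosa cell libraries.

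The 3 chains of C1q, the recognition subunit of the classical complement pathway, were high in the same 2 granulosa cell libraries. C1qa was at 37.3 CPM in blebbistatin replicate 1 and 21.3 in replicate 2, and at most 0.106 CPM elsewhere among the granulosa cell libraries. C1qb was at 49.6 and 87.7 CPM, with 0.159 CPM as its highest level in the other 10. C1qc was at 61.7 and 72.2 CPM, with 0.122 CPM as the highest of the others. Divided by transcript length, the levels in replicate 1 were 35.8, 45.6 and 51.3 CPM per kilobase for C1qa, C1qb and C1qc, and in replicate 2 they were 20.5, 80.6 and 60.0. All 3 chains, which assemble into 1 protein, were therefore present in each of the 2 libraries, and their order of level differed between them.

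Of 19 other genes of the complement pathway, 3 (15.8%) had blebbistatin replicates 1 and 2 as their highest granulosa cell libraries, against 569 of the 35831 genes with any count in these libraries (1.59%). They were C5ar1 and C3ar1, the receptors for the released fragments C5a and C3a, which phagocytes carry, and Calr, which encodes the chaperone calreticulin. C5ar1 was at 20.2 and 28.8 CPM and at 0 in the other 10 libraries, and C3ar1 at 28.7 and 50.5 CPM with a highest other level of 1.04. Calr was abundant in all 12, and its 1277 and 1253 CPM were next to 1245 CPM in dextran replicate 1. The complement regulator Clu was abundant in all 12 libraries, at 366 to 1268 CPM.

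Of the surface receptors, Adgre1, which encodes the F4/80 antigen used to stain mouse macrophages, was at 13.3 CPM (244 counts) in blebbistatin replicate 1 and 17.2 CPM (295 counts) in replicate 2. It had 0 counts in the other 22 libraries of both cell types. Csf1r was the exception among the 10 genes. In the blebbistatin group it was at 0, 15.0, 1.09 and 1.95 CPM in replicates 1 to 4. The controls gave 1.18, 2.03, 0.919 and 1.61 CPM and the dextran libraries 1.08, 1.18, 1.28 and 1.43 CPM. Replicate 1 thus had 0 counts of Csf1r (interval 0 to 0.200 CPM), while the 10 granulosa cell libraries without Adgre1 had 19.4 to 45.6 counts.

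Csf1r overlaps Hmgxb3 in the GENCODE annotation of GRCm38, and whether the counting used strand is not given in the sources used here, so reads of the overlap cannot be told apart. Hmgxb3, named after its values were seen, was at 2.45 CPM in blebbistatin replicate 1 and 14.4 CPM in replicate 2, and at 14.6 to 31.7 CPM in the other 10 granulosa cell libraries. Its level was thus lowest in the library in which Csf1r was at 0. Its part in the low Csf1r level of the other libraries was not tested.

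Tyrobp and Fcer1g encode small membrane adaptors that carry the signal of receptors without a signalling tail of their own, such as TREM2 and Fc receptors. Tyrobp was at 11.5 CPM in blebbistatin replicate 1, at 19.8 CPM in replicate 2 and at 0.365 CPM or less in the other 10 granulosa cell libraries, of which 8 had 0 counts. Fcer1g was at 35.7 and 29.2 CPM, and at 0 to 0.730 CPM in the others. Their partners split. Trem2, a lipid receptor that signals through Tyrobp, was at 20.6 and 21.3 CPM and at 0.106 CPM or less elsewhere. The Fc receptors Fcgr3 and Fcgr1, which use Fcer1g, were at 17.6 and 38.6 CPM and at 10.7 and 4.26 CPM, with highest other levels of 1.28 and 0.365. Syk, the kinase that both adaptors recruit, was by contrast at 0.978 and 10.6 CPM, inside or below the range of 2.56 to 17.1 CPM of the other 10 libraries. Blebbistatin replicates 1 and 2 were the highest libraries for 6 of the 18 listed partners (33.3%), against 1.59% of genes with any count. The filter on low counts kept 4 of the 18.

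Cd68 and Laptm5 encode membrane proteins of lysosomes. Cd68 was at 121 CPM in blebbistatin replicate 1 and 120 CPM in replicate 2, the most even of the 9 genes measured in both. It was also the 1 member with counts in every granulosa cell library, at 0.095 to 1.46 CPM in the other 10. Laptm5 was at 12.3 and 24.8 CPM, and 9 of the other 10 libraries had 0 counts. Over the 9 genes, the level in replicate 2 relative to replicate 1 ranged from 0.572 for C1qa to 2.02 for Laptm5, with a median of 1.30, and 6 of the 9 were higher in replicate 2.

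The plot of the granulosa cell libraries also shows control replicate 4, the highest of the 10 remaining libraries in the members' sum. Of its 11.5 CPM, Lyz2 gave 7.52 and Cd68, Csf1r, Fcer1g, Tyrobp and C1qc the remainder. C1qa, C1qb, Adgre1 and Laptm5 were at 0 there. Ctss, a lysosomal protease of antigen-presenting cells, was at 2.495 CPM in the same library and at 0 to 0.237 CPM in the other 9 outside blebbistatin replicates 1 and 2. This library also had the second highest sum of 34 other macrophage markers among those 10, at 35.4 CPM, below dextran replicate 2 at 43.1 CPM.

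Those 34 other markers summed to 393 CPM in blebbistatin replicate 1 and 437 CPM in replicate 2, against 10.3 to 43.1 CPM in the other 10 granulosa cell libraries. Replicates 1 and 2 were the highest libraries for 17 of the 34 (50.0%), against the 1.59% of genes with any count and 402 of the 15370 genes kept by the filter on low counts (2.62%), a filter that 11 of the 34 passed. Among them were Lcp1, which bundles actin in leukocytes, at 93.5 and 82.0 CPM, and Ctss at 47.2 and 53.4 CPM. Trem2, Fcgr1, Fcgr3 and C5ar1 were also among them and were counted above with the adaptor partners or the complement genes. Defining leukocyte genes were uneven: Ptprc, which encodes the pan-leukocyte antigen CD45, was at 0 in replicate 1 and 4.26 CPM in replicate 2. The 16 genes of phagocyte lysosomes and lipid handling overlap with what granulosa cells express, and replicates 1 and 2 were highest for 8 of them. Ctsb, the protease cathepsin B, was at 1266 and 1573 CPM against 140 to 328 CPM in the other 10, and Psap at 1176 and 1540 CPM against 440 to 705 CPM. Ctsl, by contrast, was at 1473 and 1545 CPM, inside the range of 1460 to 2598 CPM of the others.

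Markers of other blood cells were mixed. The 11 neutrophil markers summed to at most 0.054 CPM in any granulosa cell library, so the lysozyme signal stood beside neutrophil transcripts at or near 0. The 6 B cell markers summed to 0 CPM in blebbistatin replicate 1 and 0.583 CPM in replicate 2, within the range of 0 to 0.730 CPM of the others. The 7 genes of the MHC class II pathway of antigen presentation summed to 5.71 CPM in blebbistatin replicate 1, which was H2-DMa alone. They summed to 8.34 CPM in replicate 2 and to 1.42 to 8.59 CPM in the other 10 libraries. The 11 T and NK cell markers summed to 19.0 and 12.8 CPM, against 3.19 to 13.0 CPM in the other 10. Of these 11, Il7r alone had replicates 1 and 2 as its highest libraries, at 18.8 and 7.40 CPM. The 6 dendritic cell markers summed to 54.3 CPM in replicate 1, which was Zbtb46 alone, and to 8.69 CPM in replicate 2, against 5.80 to 19.6 CPM in the other 10.

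Genes of stroma and smooth muscle summed higher in the blebbistatin group without following the set. Their 12 genes summed to 1639, 411, 1106 and 435 CPM in blebbistatin replicates 1 to 4, to 389, 25.5, 76.8 and 377 CPM in the controls and to 194, 380, 27.5 and 22.1 CPM in the dextran libraries. The 4 blebbistatin libraries were above the other 8, but replicates 3 and 4, with sums of the macrophage genes of 2.55 and 3.91 CPM, shared that level. Blebbistatin replicates 1 and 2 were the highest libraries for 0 of the 12 genes, against 1.59% of genes with any count. The 11 endothelial genes summed to 16.8 and 26.5 CPM in replicates 1 and 2, inside the range of 7.35 to 40.7 CPM of the others. The 6 theca markers summed to 82.9 CPM in replicate 1, which was Ptch1 alone, and to 35.3 CPM in replicate 2, against 15.7 to 47.9 CPM in the other 10. The 13 granulosa cell markers were lowest in replicate 1, at 17448 CPM, with 22026 CPM in replicate 2 and 19712 to 34159 CPM in the others. The 12 oocyte markers summed to 38.0 CPM in replicate 1, against 3.09 to 15.1 CPM in the other 11. The part of stromal RNA or of the low number of genes detected in replicate 1 in these levels was not tested.

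**Figure D2:**
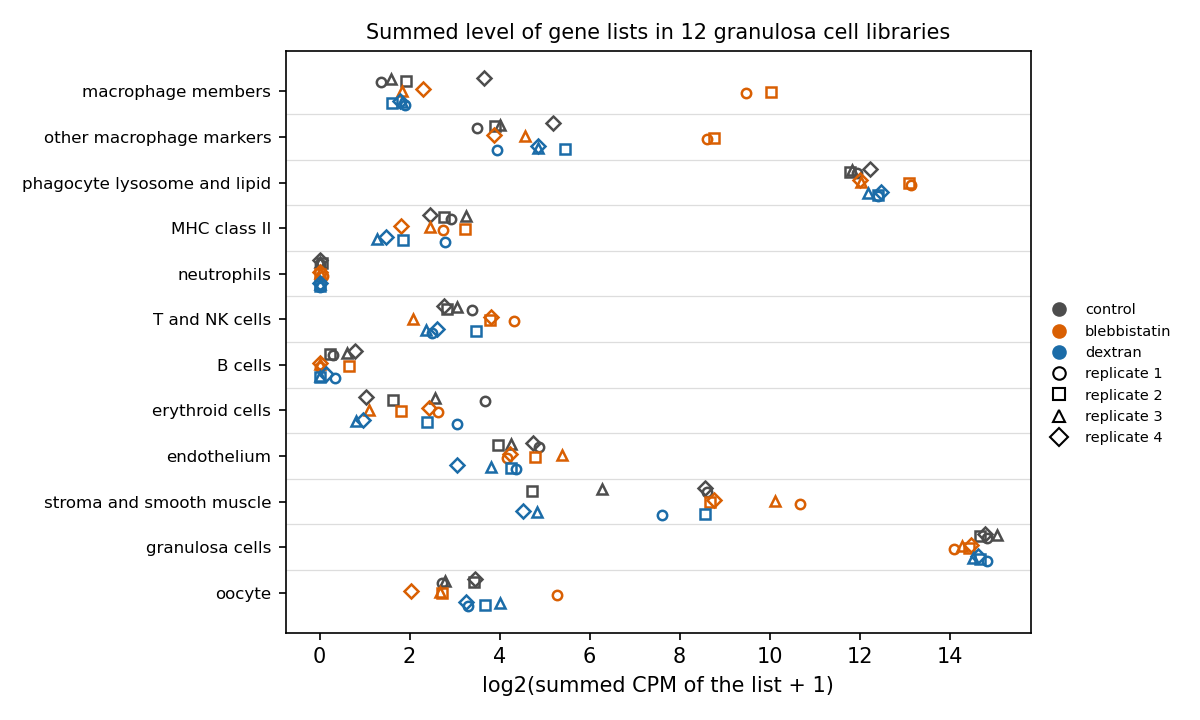
Summed level of 12 gene lists in each of the 12 granulosa cell libraries, as log2(summed CPM + 1) on the horizontal axis; colours give the condition, marker shapes the replicate number, and each point is 1 library. Blebbistatin replicates 1 and 2 stand apart from the other 10 for the 10 macrophage genes (716 and 1054 CPM) and the 34 other macrophage markers (393 and 437 CPM), whereas the stromal sum is also high in replicate 3 (1106 CPM).

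The genes outside the set whose level most resembled that of Lyz2 across the 12 granulosa cell libraries were ranked by Pearson's r of log2(CPM + 1). They came from 10444 genes with a symbol, members included, that reached 10 CPM in at least 1 of these libraries. Ctss was first (r = 0.997), then Lilrb4b (0.992), C3ar1 (0.990), Atp6v0d2 (0.989), Plek (0.987), Fcgr3, Lcp1, Cd53, Cd84 and C5ar1. Those most like the mean of the 10 members were C5ar1, Cd84, Lilrb4b, C3ar1, Itgb2, Trem2, Ms4a7, Slc11a1, Cd53 and Ctss. The 14 genes on the 2 rankings included 10 of the other macrophage markers. The members themselves had r of 0.958 to 0.982 with Lyz2, apart from Csf1r at 0.367. All of these values rest on the same 2 high libraries, and are a description. A stricter look, at genes of at least 10 CPM in both of those libraries and under 1 CPM in the other 10, found 16 genes: 7 members, 6 other listed genes (C5ar1, Cd53, Cd84, Itgb2, Slc11a1 and Trem2) and 3 unlisted ones, Glipr1, Lilrb4b and Myo1f.

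No difference in the set between dextran and control granulosa cells passed the test. Of the 9 genes other than Lyz2, 3 passed the filter. Fcer1g would not have passed without the blebbistatin libraries, and its difference is not given. edgeR's quasi-likelihood test over 15370 genes called neither of the other 2, Cd68 and Csf1r, at an adjusted p of 0.05, where 0% of all genes were called. For both genes the dextran and control libraries overlapped, whereas 2.11% of all genes had every dextran library higher and 2.66% every dextran library lower. The median log2 difference over all genes was -0.0037. The log2 differences between dextran and control were 0.46 ± 1.27 (SE) for Cd68 and -0.20 ± 1.14 for Csf1r. Without blebbistatin replicates 1 and 2, an alternative added after the data were seen, the SE of Cd68 fell to 0.68 and that of Csf1r to 0.46, with differences of 0.44 and -0.20. By edgeR 523 of the 15370 genes had an unadjusted p under 0.05, fewer than the 1 in 20 that pass when nothing differs. DESeq2 called 42 genes, none of them a member.

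In oocytes the set had another shape. The members summed to 43.6 to 66.2 CPM in all 12 libraries, with no library apart from the rest as in granulosa cells, and C1qb made up most of the summed CPM. Adgre1 was at 0 in the 12 oocyte libraries. Tyrobp and Fcer1g had at most 1 count in any of them, and Lyz2 was at 0 except for 7.1 counts (0.423 CPM) in control replicate 4. The other side was that 4 members, C1qb, Cd68, Csf1r and Laptm5, had counts in all 12 oocyte libraries. The 34 other macrophage markers summed to 219 to 285 CPM in oocytes. Their sum was 10.3 to 43.1 CPM in the 10 granulosa cell libraries other than blebbistatin replicates 1 and 2. Whether macrophage RNA had a part in the oocyte levels was not tested.

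C1qb was at 38.8, 38.5, 30.6 and 40.0 CPM in control oocytes, at 39.4, 52.7, 34.6 and 35.0 CPM with blebbistatin and at 29.8, 37.8, 40.8 and 44.4 CPM with dextran. The 3 groups overlapped throughout, at 37.0 ± 4.29, 40.4 ± 8.45 and 38.2 ± 6.19 CPM (SD, n = 4 each). Its partners were almost absent. C1qa had 0 to 9 counts (at most 0.619 CPM), and C1qc had 0 counts in 11 libraries and 5 in dextran replicate 1. Per kilobase of transcript, the mean level over the 12 oocyte libraries was 35.4 CPM for C1qb, 0.147 for C1qa and 0.023 for C1qc. The oocyte level of C1qb per kilobase was below the 45.6 and 80.6 of blebbistatin granulosa cell replicates 1 and 2, in which C1qa was at 35.8 and 20.5 and C1qc at 51.3 and 60.0. In the GENCODE annotation of GRCm38 the 3 genes lie side by side in the order C1qb, C1qc, C1qa on chromosome 4, with no other gene overlapping them.

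**Figure D3:**
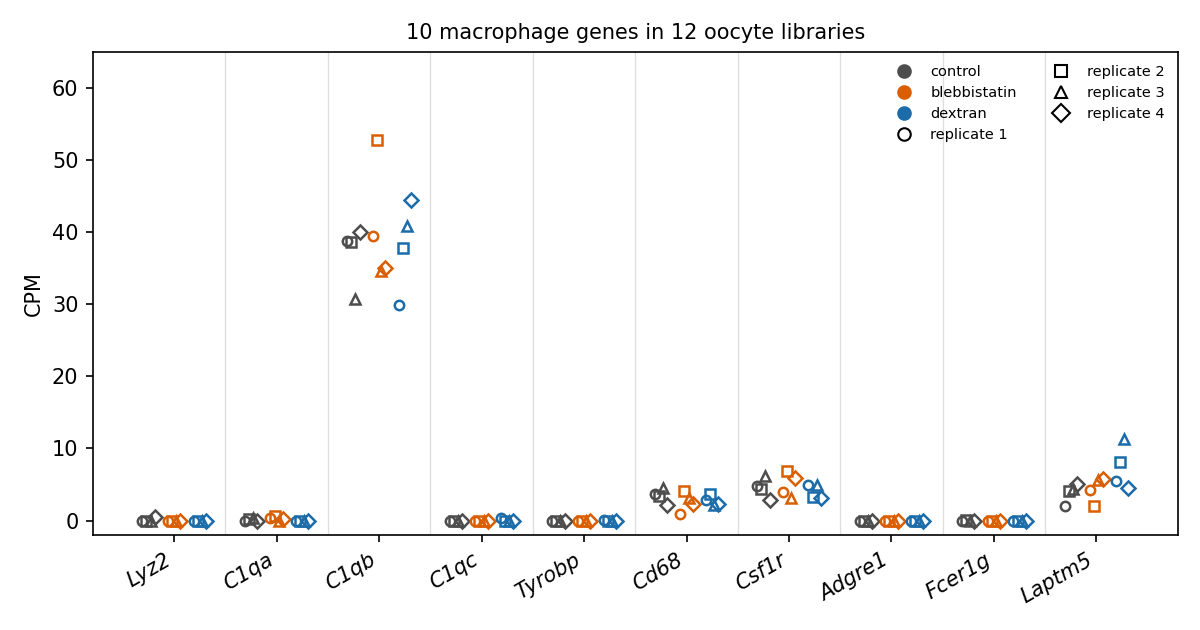
CPM of each of the 10 genes in the 12 oocyte libraries; colours give the condition, marker shapes the replicate number, and each point is 1 library. C1qb lies between 29.8 and 52.7 CPM in every library, Cd68, Csf1r and Laptm5 between 0.905 and 11.3 CPM, and the other 6 genes at or below 0.619 CPM.

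Laptm5 was at 2.04, 4.08, 4.38 and 5.10 CPM in control oocytes, at 4.22, 1.99, 5.57 and 5.74 CPM with blebbistatin and at 5.55, 8.17, 11.3 and 4.49 CPM with dextran. Of the dextran libraries, 3 lay above all 4 controls, and replicate 4 lay among them. Cd68 was at 3.67, 3.42, 4.5 and 2.22 CPM in control, at 0.905, 4.12, 3.18 and 2.31 CPM with blebbistatin and at 2.90, 3.67, 2.09 and 2.32 CPM with dextran oocytes. Its 3 groups overlapped. Csf1r was at 4.75, 4.41, 6.17 and 2.90 CPM, at 4.01, 6.84, 3.06 and 5.86 CPM and at 4.87, 3.30, 4.91 and 3.08 CPM in the same order of groups, which overlapped as well. In the 12 oocyte libraries Hmgxb3, which overlaps Csf1r, was at 25.3 to 50.0 CPM.

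No member of the set was called in oocytes under either treatment. With blebbistatin, 4 of the 9 genes passed the filter and edgeR's quasi-likelihood test over 16749 genes called 0 of them, where 0% of all genes were called. For each of the 4 genes the groups overlapped, whereas 1.24% of all genes had every blebbistatin library higher and 1.46% every one lower. The log2 differences from control were 0.13 ± 0.17 (SE) for C1qb, -0.38 ± 0.43 for Cd68, 0.12 ± 0.34 for Csf1r and 0.17 ± 0.40 for Laptm5, with a median of 0.13 against -0.0092 over all genes. By edgeR 686 of the 16749 genes had an unadjusted p under 0.05, fewer than the 1 in 20 that pass when nothing differs. DESeq2 called 16 genes, none a member.

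With dextran the same 4 genes were tested and edgeR called 0, again where 0% of all genes were called. The groups overlapped for each of the 4, whereas 0.896% of all genes had every dextran library higher and 1.51% every one lower. Laptm5 differed most, by 0.97 ± 0.40 on the log2 scale, with an adjusted p of 0.8815 by edgeR and 0.6278 by DESeq2. The differences were 0.09 ± 0.17 for C1qb, -0.29 ± 0.42 for Cd68 and -0.12 ± 0.34 for Csf1r, and the median was -0.017 against 0.0031 over all genes. By edgeR 890 of 16749 genes, Laptm5 among them, had an unadjusted p under 0.05. That is near the 1 in 20 that pass when nothing differs. DESeq2 called 4 genes. These comparisons share the control oocyte libraries with those of blebbistatin.

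Control oocytes were compared with control granulosa cells in a fit over all 24 libraries and 20601 genes. Of the 9 genes, 5 passed the filter, and 4 were higher in oocytes at an adjusted p under 0.05, C1qb, Laptm5, Cd68 and Csf1r. The background was high: 77.3% of all genes were called in this comparison, 44.4% as higher and 32.9% as lower in oocytes. The median log2 difference over all genes was 0.41. C1qb and Laptm5 passed the filter through the oocyte libraries and 2 blebbistatin granulosa cell libraries. With 2 and 0 counts over the 4 control granulosa cell libraries, these 2 genes could be called only as higher in oocytes. Fcer1g would not have passed without the blebbistatin granulosa cell libraries. The count therefore describes the members that passed and not the set.

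C1qb had 2445 counts over the 4 control oocyte libraries and 2 over the 4 control granulosa cell libraries. Its ratio of CPM was 1500 (counting interval 415 to 12397). Laptm5 had 261 counts against 0 and was at least 26.7-fold higher, taking 3 counts per granulosa cell library as the floor. No p-value is given for these 2 genes, because both passed the filter through libraries in which they were high. Cd68 was at 3.45 ± 0.943 against 0.671 ± 0.450 CPM (SD, n = 4 each), a log2 difference of 2.72 ± 1.00 (SE) with an adjusted p of 0.01787 by edgeR. In each of these 3 genes the 4 oocyte libraries lay above the 4 granulosa cell libraries, which was so for 40.2% of all genes, while 37.5% had every oocyte library lower. Csf1r was at 4.56 ± 1.35 against 1.44 ± 0.488 CPM, also without overlap, with a log2 difference of 2.01 ± 0.86 and an adjusted p of 0.03837. Fcer1g had 1 count against 22, and its difference is not given, because its passing of the filter rested on the blebbistatin granulosa cell libraries.

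The calls of Cd68 and Csf1r depended on 1 library or on the method. Without control granulosa cell replicate 1, the adjusted p by edgeR was 0.05806 for Cd68 and 0.09747 for Csf1r. Csf1r also missed the threshold without control granulosa cell replicate 3 (0.1095) or 4 (0.06337), or without control oocyte replicate 1 (0.06049), 2 (0.06523) or 3 (0.0753).

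The ligands of the CSF1 receptor were also higher in oocytes than in granulosa cells. Csf1 was at 35.7 to 64.5 CPM and Il34 at 52.0 to 75.9 CPM in the 12 oocyte libraries. In control granulosa cells Csf1 was at 1.57, 1.204, 0.047 and 1.64 CPM, and Il34 at 0 in 3 libraries and 0.669 CPM in replicate 4. Control oocytes exceeded control granulosa cells by a ratio of 44.1 for Csf1 (counting interval 35.7 to 55.1, adjusted p = 2.298e-05 by edgeR) and 464 for Il34 (259 to 931, adjusted p = 1.571e-08). Of the list of 10 ligands and chemoattractants, 4 of the 6 tested were higher and 2 lower in oocytes, against the same 44.4% and 32.9% of all genes. In the granulosa cell libraries with high macrophage genes, Csf1 was at 20.3 CPM in blebbistatin replicate 1 and 1.87 CPM in replicate 2, and replicate 3, without those genes, had 9.56 CPM. Ccl4, a chemokine that macrophages release, was at 36.6 CPM in replicate 1, 1.52 CPM in replicate 2 and 0 in the other 10.

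**Figure D4:**
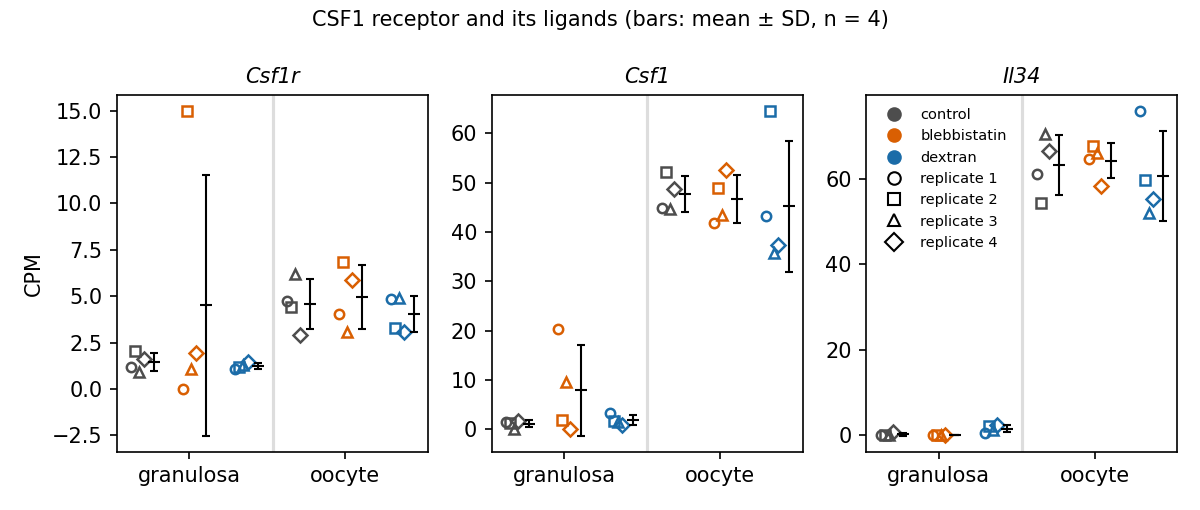
CPM of Csf1r and of its ligands Csf1 and Il34 in each library, by cell type; colours give the condition, marker shapes the replicate number, and bars the mean ± SD of the 4 libraries of a group. Both ligands are at 35.7 CPM or more in every oocyte library, and Csf1r reaches 15.0 CPM in 1 blebbistatin granulosa cell library.

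Among the 34 other macrophage markers, 16 were tested between control oocytes and control granulosa cells, of which 7 were higher and 2 lower in oocytes, against 44.4% and 32.9% of all genes. Clec12a, a C-type lectin receptor of myeloid cells, was at 101 to 147 CPM in the 12 oocyte libraries and at 0.609 CPM or less in control granulosa cells. Lcp1 was at 33.3 to 72.4 CPM and Timd4, a receptor for phosphatidylserine on dying cells, at 21.7 to 41.4 CPM in oocytes. Trem2, Ctss and Spi1 were by contrast at most 0.396 CPM in any oocyte library. Of the 18 adaptor partners, 10 were tested, 6 were higher and 1, Syk, was lower in oocytes. Of the 19 other complement genes, 15 were tested, and 2 were higher and 9 lower, Clu among the lower. These counts are to be read against the same shares of all genes.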

How the data were processed

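RNA of 24 libraries (6 groups of 4) was sequenced after 15 cycles of cDNA amplification, per the labels' protocols. The authors ran salmon, as the labels state, and deposited its estimated counts per gene as a granulosa cell table and an oocyte table (2 tables of 78298 genes; 0 sample columns unused). The submitters' processing notes name GRCm39 as the build. The annotation release, software versions and strandedness of counting are unknown here. Levels are CPM of the unscaled library total, from the deposited counts.

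For tests the counts were rounded to whole numbers, filtered with filterByExpr, scaled by TMM and fitted with edgeR 4.0.16 (glmQLFit, robust; glmQLFTest) in R 4.3.3, each cell type over its 12 libraries and the cell types together over 24. Benjamini-Hochberg adjustment ran over all genes tested, with a threshold of 0.05; the code was tested on simulated data. The members and 18 other gene lists (214 genes in all) were chosen with earlier results of these data known. Named are the members, their partners, the 3 most abundant genes of each list, listed genes that passed the test and the 10 genes most like Lyz2 or the members' mean; others named were chosen after their values were seen. Alternatives were DESeq2 1.42.0, limma voom 3.58.1, other scalings and filters, 2-group fits, a replicate block and leaving out libraries. Promoters are from RefSeq (GRCm38.p6), transcripts and neighbours from GENCODE on GRCm38.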

Additional observations from a re-analysis of the deposited data

Results flagged for a closer look

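In each group of 4 libraries, a library was singled out when its gap to the nearest other library was most of the group's range (Dixon's test at the 95% level). Of 42 groups checked, 9 were singled out. The usual chance rate of about 1 in 20 does not apply here, because where 3 libraries are at 0 the gap equals the range. The members' sum is also not independent of its genes. In granulosa cells, control replicate 4 stood above the other controls in the members' sum, at 11.502 CPM, and in Lyz2, at 7.522 CPM where the other 3 were at 0. Dextran replicate 1 stood above the other dextran libraries, all at 0, in Lyz2 at 0.476 CPM and in C1qb at 0.159 CPM, which is 3 counts. Blebbistatin replicate 2 stood above the other 3 in Csf1r at 14.972 CPM, whereas replicate 1, the other library with high macrophage genes, was at 0. The high Lyz2 level of blebbistatin replicates 1 and 2 was not singled out by this test, because each has the other as its nearest neighbour.

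In oocytes, blebbistatin replicate 2 had the highest members' sum of its group, at 66.242 CPM, with C1qb at 52.7 CPM. Control replicate 3 was lowest in C1qb among the controls, at 30.638 CPM. Lyz2 at 0.423 CPM in control replicate 4 and C1qc at 0.33 CPM in dextran replicate 1 rested on 7.1 and 5 counts, with 0 in the other 3 libraries of each group.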

How the results depend on the processing

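Under the alternatives run, 0 members were called for granulosa cell dextran, oocyte blebbistatin and oocyte dextran, as reported. Between control oocytes and control granulosa cells, limma voom called 2 of the members where edgeR called 4, and leaving out 1 library at a time gave 2 to 4, with 2 without control granulosa cell replicate 1. C1qb and Laptm5 were called under 15 of 15 settings, Cd68 under 13 and Csf1r under 7 (adjusted p up to 0.1244 and 0.1095). The fit with the replicate number as a block called 0, 0, 0 and 4 members; same-numbered libraries did not deviate together (r from -0.20 to 0.25 in granulosa cells and -0.12 to 0.16 in oocytes), so the block is not a pairing. Counts over all genes differed more: DESeq2 called 42, 16 and 4 genes where edgeR called 0, the fit without a filter 4 for granulosa cell dextran and 4 for oocyte blebbistatin, the granulosa cell fit on 2 groups 1, and that without blebbistatin replicates 1 and 2 (added after the data were seen) 1. The mean blebbistatin levels of the members' sum and of Lyz2 moved by less than 1 SD under every scaling, and leaving out 1 library gave 241 to 591 CPM and 125 to 340 CPM. Depth limits statements at 0 counts to the floor of 3 counts per library.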

Other observations

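Other genes used as markers of blood or vessel cells were present in the oocyte libraries, while some genes of the same lists were at 0. Ms4a1, which encodes the B cell antigen CD20, was at 74.1 to 196 CPM in the 12 oocyte libraries and at 0 in the 12 granulosa cell libraries, whereas Cd79b was at 0 in all 12 oocyte libraries and Pax5 at 0.594 to 3.92 CPM. Pecam1, an endothelial adhesion molecule, was at 65.4 to 130 CPM and Zbtb46, a transcription factor of dendritic cells, at 97.1 to 128 CPM in the oocyte libraries, while the endothelial genes Cdh5 and Emcn were at 0 there. Of the 11 endothelial genes, 6 to 8 had at least 3 counts in each oocyte library, among them Tie1 at 1.44 to 9.65 CPM and Plvap at 4.18 to 12.95 CPM. The dendritic cell gene Flt3 was at 0 to 4.70 CPM.

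Globin RNAs stood out in 1 oocyte library. Control replicate 4, the oocyte library with Lyz2 counts, had Hbb-bs at 41.0, Hba-a2 at 38.3, Hba-a1 at 17.5 and Hbb-bt at 5.69 CPM. Its 6 erythroid genes summed to 102.5 CPM, against at most 2.56 CPM in the other 11 oocyte libraries. Granulosa cell genes varied as well: Inha was at 1513 CPM in oocyte control replicate 2 and the 13 granulosa cell markers summed to 60.3 to 2524 CPM over the 12 oocyte libraries. The members' sum in that library, 50.7 CPM, lay within the range of the other oocyte libraries.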
